A study of Mus musculus with 5 samples.

Results

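The 10 genes described here encode the 5 NF-κB subunits (*Nfkb1*, *Nfkb2*, *Rel*, *Rela* and *Relb*) and 5 of their inhibitors (*Nfkbia*, *Nfkbie*, *Nfkbid*, *Nfkbiz* and *Tnfaip3*). They were named by symbol among 55487 gene identifiers. RNA had been sequenced from CD4 SP cells, single-positive thymocytes that have stopped making CD8, of 3 wild type (WT) and 2 *Tet2/3* DKO C57BL/6J mice aged 21 to 30 days, with 1 library per mouse. The WT mice are labelled wild type with no allele named. The *Tet2/3* DKO mice are *Tet2*-/- *Tet3* flx/flx CD4cre, so that *Tet2* was lost in all cells of the animal and *Tet3* was deleted only where the CD4 promoter drives Cre, that is, in the T lineage. Thymocytes of both genotypes had been depleted of cells with high CD24 and sorted as live, TCRβ+, CD4+ and CD8- cells that did not bind the αGalCer-loaded CD1d tetramer, which leaves out iNKT cells. Full-length cDNA was made by SMART-seq without molecular identifiers.

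NF-κB proteins bind DNA as dimers that are formed from the subunits. RELA, RELB and REL carry activation domains, whereas *Nfkb1* and *Nfkb2* encode precursors that are processed to DNA-binding subunits and whose uncut forms act as inhibitors. Classical IκB proteins hold the dimers in the cytoplasm until the IKK complex marks them for degradation, atypical IκB proteins act on dimers in the nucleus, and the ubiquitin-editing enzyme encoded by *Tnfaip3* shuts off the signal upstream. In the thymus this pathway acts downstream of the T cell receptor and of TNF family receptors, and it takes part in the maturation of CD4 SP cells and in the development of regulatory T cells.

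The libraries held between 17607089 and 27267031 reads counted on genes. *Tet3* had 1133, 1082 and 1440 reads in WT replicates 1, 2 and 3 and 419 and 235 reads in *Tet2/3* DKO replicates 1 and 2, which is -1.50 on the log2 scale (SE, the error of the estimate, 0.18, adjusted p = 0.00121, edgeR). Counts over the whole *Tet2* gene, at 1355, 1286 and 1585 against 1919 and 1048, do not test the *Tet2* genotype. The library labelled *Tet2/3* DKO replicate 1 went against its label of a male mouse, with 744 reads on *Xist* and 7 on 4 Y-linked genes, and the library labelled WT replicate 1 went against its label of a female mouse, with 0 and 6821. Reads outside annotated genes made up 5.70% of *Tet2/3* DKO replicate 1 and 3.51 to 3.72% of the others. Values without that library are given beside the results whose side of the threshold it changes. All 7 markers of CD4 T cells were present at 344 CPM or more (counts scaled by library size with TMM) in the 5 libraries, and 5 of them lay below every WT library in both *Tet2/3* DKO libraries, against 19.5% of all tested genes. *Cd5* had 895, 941 and 886 CPM in WT and 404 and 344 CPM in *Tet2/3* DKO libraries (log2 fold change -1.28), and *Cd4* had 635, 752 and 572 against 389 and 433 CPM (log2 fold change -0.67), both past an adjusted p of 0.01. Without WT replicate 1, 2 or 3 the adjusted p of *Cd4* was 0.0419, 0.0364 or 0.0203. Of 5 markers of double-positive thymocytes *Rag1*, *Rag2* and *Ptcra* were at or near 0, while *Dntt* was at 13.6 to 23.6 CPM and *Cd1d1* at 101 to 161 CPM. *Cd8b1* was lower, at 66.9, 65.9 and 71.7 against 28.6 and 27.1 CPM, while *Cd8a* lay above WT in both *Tet2/3* DKO libraries without passing the test, at 2.71, 2.91 and 5.39 against 5.77 and 8.67 CPM (log2 fold change 0.94, adjusted p = 0.128). *Tet2/3* DKO cells had more RNA of all 5 markers of NK and innate-like cells, each past an adjusted p of 0.01, against 2.42% of all tested genes that were higher. Their summed level was 31.9 to 43.0 CPM in WT and 330 and 582 CPM in *Tet2/3* DKO libraries. *Nkg7* and *Zbtb16* stayed past the threshold with any 1 library left out, and the other 3 reached an adjusted p of up to 0.0497 without a WT library. *Foxp3*, the defining factor of regulatory T cells, was lower, at 44.4, 58.1 and 54.3 against 17.9 and 24.3 CPM. Other genes overlap *Foxp3* and 51.2% of its stranded reads were kept. With the reads of both strand columns it had 86.1, 99.5 and 92.6 against 58.2 and 60.1 CPM, and the log2 fold change was -0.65 (adjusted p = 0.00531, edgeR) instead of -1.31. Those columns can also hold reads of the overlapping genes, so -0.65 is not a fuller estimate for *Foxp3* alone. Without WT replicate 2 or 3 the adjusted p of *Foxp3* was 0.0203 or 0.0208. In bulk RNA fewer cells of a type and less RNA per cell cannot be told apart.

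The levels of the 10 genes were first set side by side per length, as RPKM (CPM per kilobase of the principal transcript). *Nfkbia*, which encodes IκBα, had the highest level, 368 ± 35.1 RPKM in WT (SD, n = 3) and 304 ± 49.0 RPKM in *Tet2/3* DKO cells (SD, n = 2), and lay at the 98.4 percentile of all tested genes. *Rela* was next in WT cells with 65.7 ± 2.26 RPKM, followed by *Nfkbid* with 45.8 ± 4.72, *Relb* with 32.3 ± 1.31 and *Nfkbie* with 23.6 ± 1.72 RPKM. *Nfkb2* had 13.6 ± 0.93, *Nfkb1* 10.4 ± 0.30, *Tnfaip3* 5.90 ± 1.25, *Nfkbiz* 4.56 ± 0.34 and *Rel* 1.95 ± 0.07 RPKM. In this order only *Tnfaip3* and *Nfkbiz* had WT values that overlapped, since *Tnfaip3* ranged from 4.71 to 7.20 and *Nfkbiz* from 4.24 to 4.91 RPKM.

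The order among the lower genes depends on the length used. Per kilobase of all annotated exons *Nfkb1*, for which the annotation holds long extra exons, had a WT mean of 3.55 RPKM, close to *Nfkbiz* at 3.74 and *Tnfaip3* at 3.61 RPKM, while *Nfkbia*, *Rela* and *Nfkbid* remained the first with 360, 58.1 and 39.8 RPKM. *Nfkb2* is understated by either length. Its exons overlap *Psd* and a noncoding RNA gene on the other strand, and the count taken without regard to strand kept 64.9% of the reads that both strand columns hold together. With all those reads *Nfkb2* had a WT mean of 20.1 and a *Tet2/3* DKO mean of 21.01 RPKM.

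**Figure D1:**
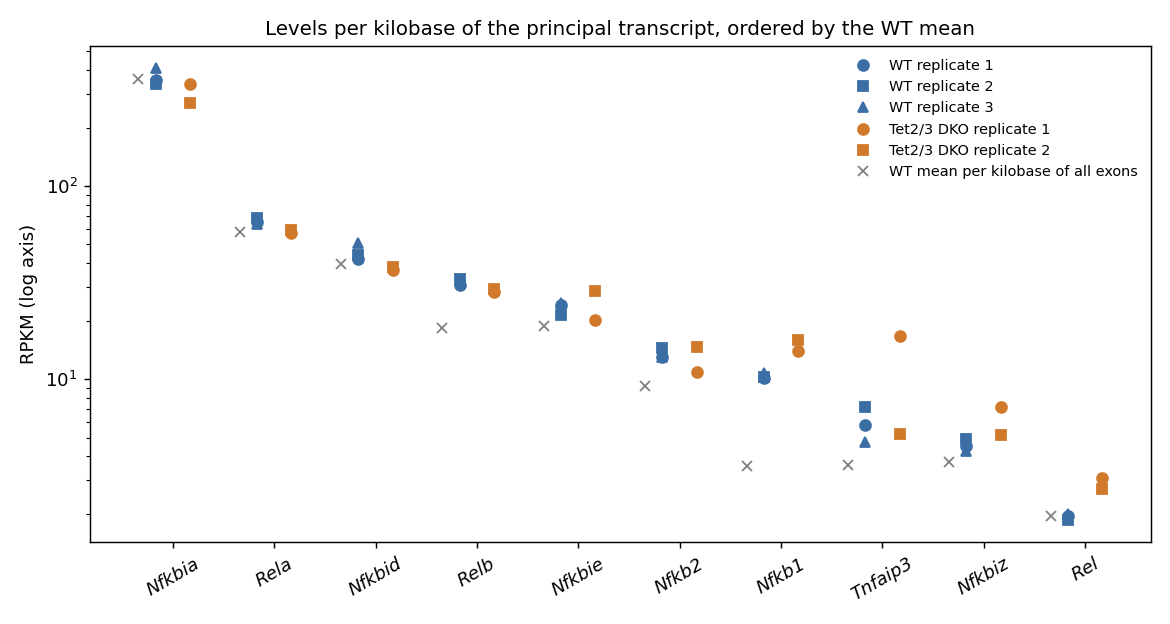
RPKM of the 10 genes on a log axis, ordered by the WT mean, with 1 point per library (blue WT, orange *Tet2/3* DKO) and a grey cross for the WT mean per kilobase of all annotated exons. *Nfkbia* lies above all other genes in every library and *Rel* below all others, and the cross of *Nfkb1* lies far under its points.

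The 10 genes were then compared between genotypes, to see whether the transcripts of the pathway's own proteins change when TET2 and TET3 are missing. All 10 passed the filter on low counts. None passed an adjusted p of 0.01 in edgeR's quasi-likelihood test, against 3.92% of the 13525 tested genes (2.42% higher and 1.5% lower in *Tet2/3* DKO cells). At an adjusted p of 0.05, *Nfkb1* and *Rel* were past the threshold, 2 of 10 against 8.67% of all genes, and 6 of 10 had an unadjusted p under 0.05, against 23% of all genes. DESeq2 called 1 of them, *Nfkb1*, against 6.91% of the 14859 genes for which it gave an adjusted p. Both *Tet2/3* DKO libraries lay above every WT library for 3 of the 10 (*Nfkb1*, *Rel* and *Nfkbiz*) and below every WT library for 4 (*Rela*, *Relb*, *Nfkbia* and *Nfkbid*). Over all tested genes 39.1% were separated in this way, 19.6% above and 19.5% below. The median log2 fold change of the 10 was -0.02, and that of all tested genes 0.01.

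**Figure D2:**
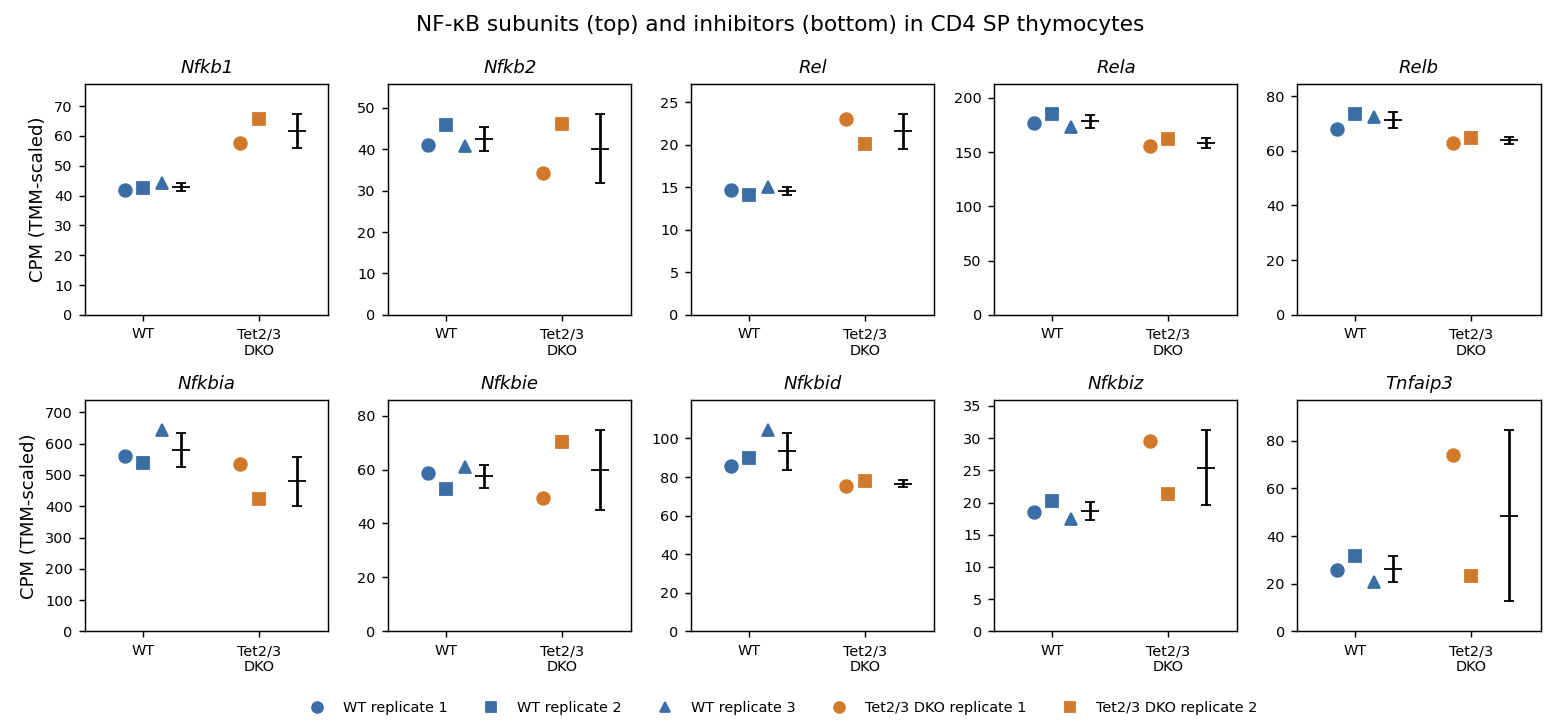
CPM of each subunit (top row) and inhibitor (bottom row), with 1 point per library and the mean ± SD beside each group. Both *Tet2/3* DKO points of *Nfkb1* and *Rel* lie above the 3 WT points, those of *Rela*, *Relb*, *Nfkbia* and *Nfkbid* lie below them, and *Tnfaip3* and *Nfkbiz* are high in *Tet2/3* DKO replicate 1.

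Of the subunits, *Nfkb1* (ENSMUSG00000028163, chr3:135584655-135691547 of mm10, minus strand) encodes the precursor that is cut to the usual partner of RELA. It had 41.9, 42.4 and 44.2 CPM in WT replicates 1, 2 and 3 and 57.6 and 65.7 CPM in *Tet2/3* DKO replicates 1 and 2, from 1006 to 1214 reads per library. The *Tet2/3* DKO values lay apart from WT values that differed little among themselves. The fold change was 1.44, a log2 fold change of 0.52 (SE 0.11, 95% interval 0.28 to 0.76, adjusted p = 0.0154, quasi-likelihood test of edgeR, Benjamini-Hochberg). Without *Tet2/3* DKO replicate 1 it was 0.61 and past the threshold (adjusted p = 0.00213), as with DESeq2 on all libraries (0.52, adjusted p = 0.000578). Over the 14 alternatives the log2 fold change stayed between 0.41 and 0.62 and the adjusted p between 0.000578 and 0.0974.

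*Rel* (ENSMUSG00000020275, chr11:23736847-23770970, minus strand) encodes c-Rel, the subunit known in T cells for its part in *Foxp3* induction. It had 14.7, 14.0 and 15.0 CPM in WT and 23.0 and 20.1 CPM in *Tet2/3* DKO cells, from 333 to 483 reads per library. The groups did not overlap, and the fold change was 1.48 (log2 fold change 0.57, SE 0.14, 95% interval 0.25 to 0.88, adjusted p = 0.0373, edgeR). No alternative brought *Rel* under an adjusted p of 0.01, and its adjusted p ranged from 0.0107 to 0.159. Without *Tet2/3* DKO replicate 1 it was 0.0869, no longer past 0.05, and without WT replicate 1, 2 or 3 it was 0.159, 0.135 or 0.11. *Foxp3* itself was lower in the same libraries (log2 fold change -1.31, or -0.65 with the reads of both strand columns, which can include reads of overlapping genes).

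*Rela* (ENSMUSG00000024927, chr19:5637483-5648130, plus strand), the main activating subunit, had 177, 185 and 174 CPM in WT and 156 and 162 CPM in *Tet2/3* DKO cells. *Relb* (ENSMUSG00000002983, chr7:19606217-19629438, minus strand), the activating subunit of the noncanonical arm, had 68.1, 73.5 and 72.5 against 63.0 and 64.6 CPM. Both lay below WT in both *Tet2/3* DKO libraries by a small amount. The log2 fold change was -0.17 for *Rela* (SE 0.08, 95% interval -0.36 to 0.02, adjusted p = 0.274) and -0.16 for *Relb* (SE 0.10, 95% interval -0.38 to 0.05, adjusted p = 0.364), and neither passed the test.

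*Nfkb2* (ENSMUSG00000025225, chr19:46304320-46312385, plus strand) encodes the precursor that pairs with RELB. It had 41.0, 45.9 and 40.8 CPM in WT and 34.2 and 46.1 CPM in *Tet2/3* DKO cells, so that the 2 *Tet2/3* DKO libraries lay on either side of the WT range. The log2 fold change was -0.09 (SE 0.14, 95% interval -0.41 to 0.24, adjusted p = 0.784). With the reads of both strand columns the levels were 62.4, 64.8 and 62.3 against 62.3 and 69.7 CPM and the log2 fold change was 0.06. *Psd*, the gene on the other strand, was at 0.73 to 1.33 CPM in the 5 libraries.

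**Figure D3:**
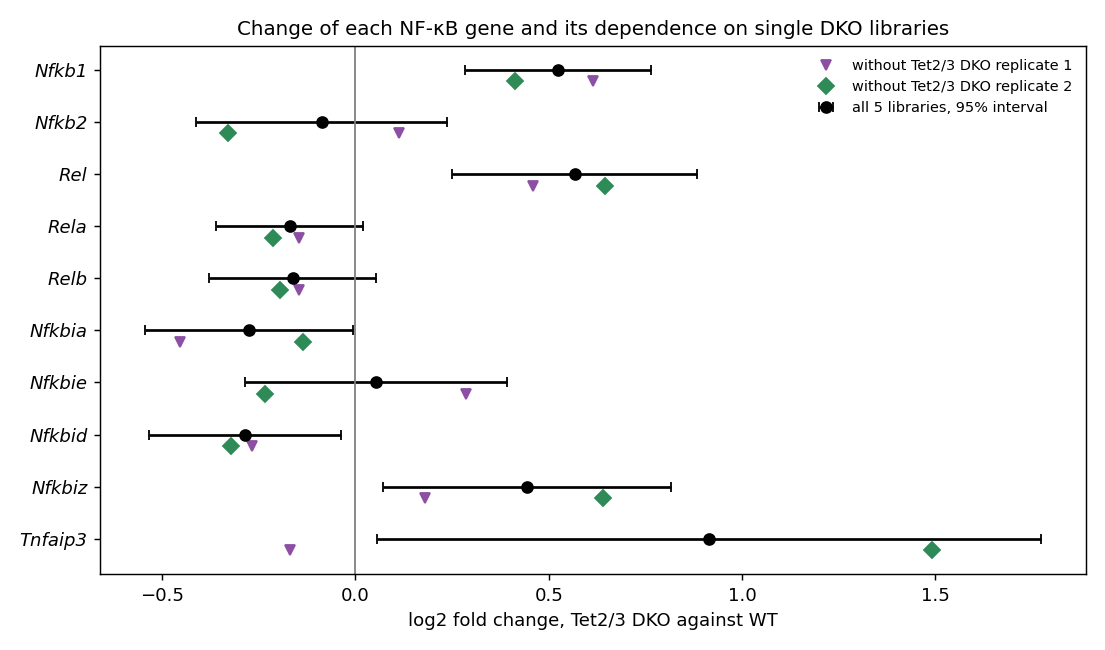
Log2 fold change of each gene, *Tet2/3* DKO against WT, with its 95% interval from all 5 libraries (black) and without *Tet2/3* DKO replicate 1 (purple) or 2 (green). The intervals of *Nfkb1* and *Rel* lie above 0 with either library left out keeping the estimate above 0.4, and the estimate of *Tnfaip3* moves from 1.49 to -0.17 with the library left out.

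Among the inhibitors, *Nfkbia* (ENSMUSG00000021025, chr12:55489410-55492647, minus strand) encodes the IκBα protein that NF-κB itself induces. It had 561, 537 and 643 CPM in WT and 534 and 425 CPM in *Tet2/3* DKO cells. The higher *Tet2/3* DKO library was close to the lowest WT library, and the lower one stood apart. The log2 fold change was -0.28 (SE 0.12, 95% interval -0.54 to -0.01, adjusted p = 0.205). It was -0.45 without *Tet2/3* DKO replicate 1 (adjusted p = 0.0118) and -0.14 without replicate 2 (adjusted p = 0.46). *Nfkbie* (ENSMUSG00000023947, chr17:45555703-45563169, plus strand), which encodes IκBε, had 58.8, 52.8 and 60.8 against 49.4 and 70.2 CPM. Its *Tet2/3* DKO libraries lay below and above all WT libraries (log2 fold change 0.05, SE 0.15, 95% interval -0.29 to 0.39, adjusted p = 0.884).

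The log2 fold changes of the 2 atypical IκB genes had opposite signs, and neither passed the test. *Nfkbid* (ENSMUSG00000036931, chr7:30421732-30428746, plus strand) encodes IκBNS, a nuclear protein known for its part in regulatory T cell development, and had 86.0, 89.9 and 104 CPM in WT and 75.5 and 77.8 CPM in *Tet2/3* DKO cells. The groups did not overlap, and the log2 fold change was -0.29 (SE 0.11, 95% interval -0.53 to -0.04, adjusted p = 0.156). *Nfkbiz* (ENSMUSG00000035356, chr16:55811375-55838899, minus strand) encodes IκBζ, a nuclear coactivator, and had 18.6, 20.2 and 17.5 against 29.5 and 21.3 CPM. *Tet2/3* DKO replicate 2 lay only just above the highest WT library. The log2 fold change was 0.44 (SE 0.17, 95% interval 0.07 to 0.82, adjusted p = 0.142), 0.18 without *Tet2/3* DKO replicate 1 and 0.64 without replicate 2 (adjusted p = 0.00881).

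*Tnfaip3* (ENSMUSG00000019850, chr10:19000910-19015657, minus strand) had the largest SE of the 10 log2 fold changes. It had 25.6, 31.9 and 20.8 CPM in WT, 73.9 CPM in *Tet2/3* DKO replicate 1 and 23.2 CPM in replicate 2, which lay within the WT range. The log2 fold change was 0.91 with a SE of 0.38 (95% interval 0.06 to 1.77, adjusted p = 0.188). Without *Tet2/3* DKO replicate 1 it was -0.17 (adjusted p = 0.688), and without replicate 2 it was 1.49 (adjusted p = 1.46e-05). A list of 10 immediate-early genes, added after the data were seen, had a summed level of 1838, 2288 and 1903 CPM in WT and of 3520 and 1566 CPM in *Tet2/3* DKO replicates 1 and 2, and 0 of its 8 tested genes passed the threshold (3.92% of all tested genes did), with 4 at an unadjusted p under 0.05 (23% of all). *Dusp1*, a phosphatase gene of that list, had 298, 342 and 287 against 804 and 199 CPM. In *Tet2/3* DKO replicate 1, 4 of the 8 lay above every WT library (*Fos*, *Junb*, *Dusp1* and *Zfp36*), 3 lay below (*Egr1*, *Ier2* and *Nr4a1*) and 1 lay within the WT range. In replicate 2 none lay above and 4 lay below. The share of all tested genes outside the WT range in a single library was not counted, so these counts are description only. The part of these genes in the result was not tested.

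The subunits and inhibitors were also set against each other within each library, where the scaling of libraries cancels. These ratios were chosen after the values were seen and are a description with no test. There were 23.7, 22.9 and 25.5 *Nfkb1* reads per 100 *Rela* reads in WT, against 37.1 and 40.6 in *Tet2/3* DKO cells. *Rel* had 8.32, 7.57 and 8.63 reads per 100 *Rela* reads in WT against 14.8 and 12.4. The *Tet2/3* DKO libraries were the higher ones for both. *Relb* reads per 100 *Rela* reads did not separate, at 38.6, 39.7 and 41.8 against 40.5 and 39.9. By RPKM, *Rela* made up 53.7, 53.2 and 52.2% of the summed subunits in WT, against 50.3 and 48.8% in *Tet2/3* DKO cells. The summed inhibitors were 3.57, 3.26 and 4.02 times the summed subunits in the WT libraries, against 3.69 and 2.84 times with *Tet2/3* DKO, so that this ratio overlapped between the genotypes.

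**Figure D4:**
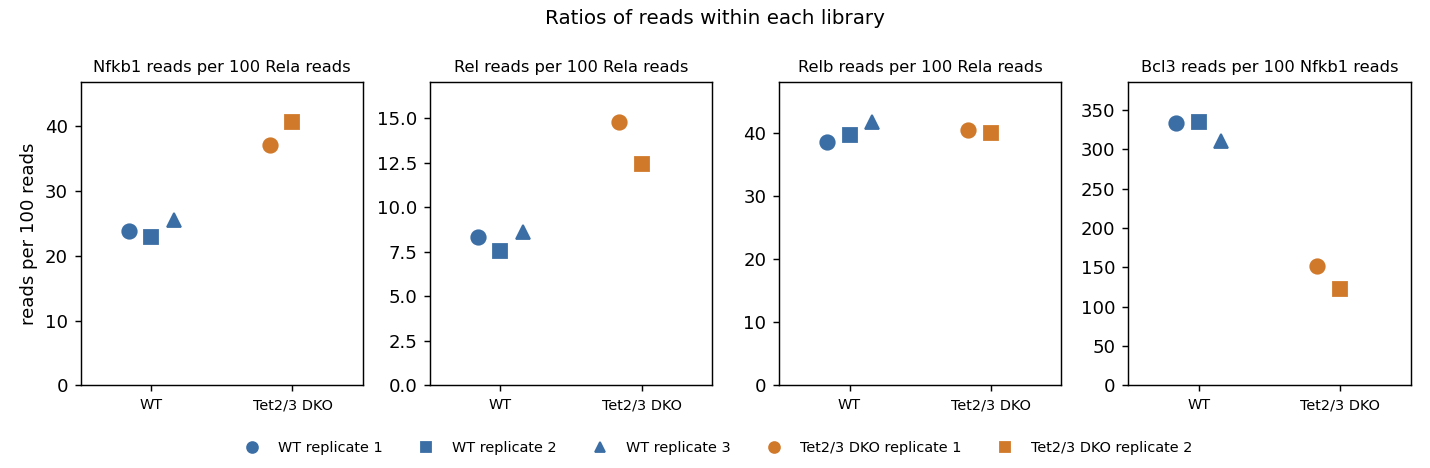
Reads of 1 gene per 100 reads of another in each library (blue WT, orange *Tet2/3* DKO), with axes from 0. *Nfkb1* and *Rel* per 100 *Rela* reads are higher in both *Tet2/3* DKO libraries, *Relb* per 100 *Rela* reads overlaps, and *Bcl3* per 100 *Nfkb1* reads lies between 311 and 335 in WT and at 152 and 123 in *Tet2/3* DKO libraries.

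NF-κB genes are known to be targets of NF-κB, and TET proteins act on CpG sites, so the promoters of the 10 genes were read from RefSeq (GRCm38.p6) as the 250 bases before each start. The table held 12 starts of 7 of the genes, and *Nfkb1*, *Relb* and *Nfkbiz* had no entry. The 10-base NF-κB consensus was searched on both strands. It was in 8 of the 12 windows and in at least 1 window of 6 of the 7 genes, all but *Rela*, against 7.25% of the 32851 windows and 8.23% of the 27025 genes in the table. These shares are not matched for base content or for the number of starts, and *Nfkb2* and *Nfkbid* had 3 starts each, so no enrichment is read from them. The matches are shown because subunits and inhibitors share them, also those whose log2 fold changes differed in sign. In the lines below, capitals mark the match, or the stretch that 2 overlapping matches cover, and the number of the start tells the RefSeq starts of a gene apart.
Nfkb2 start 1, chr19:46304689-46304717, plus strand: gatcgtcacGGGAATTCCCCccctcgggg
Nfkb2 start 1, chr19:46304716-46304736, plus strand: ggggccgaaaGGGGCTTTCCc
Nfkb2 start 2, chr19:46305449-46305478, plus strand: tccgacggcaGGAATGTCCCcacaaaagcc
Nfkb2 start 3, chr19:46305695-46305724, plus strand: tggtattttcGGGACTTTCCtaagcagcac
Rel, chr11:23771042-23771070, minus strand: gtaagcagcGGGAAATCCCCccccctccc
Nfkbia, chr12:55492657-55492686, minus strand: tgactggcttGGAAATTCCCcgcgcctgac
Nfkbie, chr17:45555584-45555613, plus strand: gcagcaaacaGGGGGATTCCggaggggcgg
Nfkbid start 2, chr7:30422170-30422199, plus strand: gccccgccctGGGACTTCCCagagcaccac
Nfkbid start 2, chr7:30422215-30422244, plus strand: gggccgaacaGGAATTCCCCgtgcgcgggg
Tnfaip3 start 1, chr10:19015516-19015545, minus strand: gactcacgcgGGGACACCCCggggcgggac
Tnfaip3 start 1, chr10:19015411-19015432, minus strand: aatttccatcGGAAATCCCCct

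In the first *Nfkb2* site and in that of *Rel* the capitals cover 2 matches that begin 1 base apart. The matches begin 29 bases before the start in *Nfkbia*, 92 in *Rel*, 106 in *Nfkbie*, 125 and 12 in *Tnfaip3*, 39 and 11 before the first, 236 before the second and 225 before the third start of *Nfkb2*, and 226 and 181 before the second start of *Nfkbid*. A match is a run of letters and no measure of binding. Of the other pathway genes listed further on, 6 of the 32 with a window held the consensus, and of the target genes 5 of 17.

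CpG content differed widely among the same windows, from 6 to 37 CpG per 250 bases with a median of 16.5, against a median of 6 (quartiles 2 and 16) over all windows. *Rel* and *Nfkbia* were near the ends of that range and are shown for contrast from 250 to 11 bases before the start, with the NF-κB match in capitals. *Rel*, with 37 CpG in its window, lay at the 97.8 percentile of all windows, and *Nfkbia*, with 8, at the 57 percentile. The other windows held 23 CpG in *Rela*, 13 in *Nfkbie* and 21, 19 and 14 at starts 1, 2 and 3 of *Nfkb2*. *Nfkbid* had 10, 33 and 10 at starts 1, 2 and 3, and *Tnfaip3* had 22 and 6 at starts 1 and 2. *Rela* and *Nfkbid* lay below WT in both *Tet2/3* DKO libraries, as *Nfkbia* did. CpG content was not tested against the change, and DNA methylation was not analysed here.
Rel, chr11:23770980-23771219, minus strand: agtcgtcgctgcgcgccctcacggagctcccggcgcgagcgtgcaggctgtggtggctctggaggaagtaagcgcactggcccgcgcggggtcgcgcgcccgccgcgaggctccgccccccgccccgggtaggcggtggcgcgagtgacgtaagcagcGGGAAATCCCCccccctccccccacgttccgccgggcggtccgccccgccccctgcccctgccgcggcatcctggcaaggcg
Nfkbia, chr12:55492658-55492897, minus strand: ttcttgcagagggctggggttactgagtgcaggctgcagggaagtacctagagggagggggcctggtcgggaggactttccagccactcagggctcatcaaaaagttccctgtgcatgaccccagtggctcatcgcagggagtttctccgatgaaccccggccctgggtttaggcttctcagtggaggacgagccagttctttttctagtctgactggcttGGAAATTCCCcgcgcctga

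The other genes of the pathway, 39 by list and 38 tested, were counted in the same fit. Of these 1 was higher and 1 lower at an adjusted p of 0.01, against 3.92% of all tested genes in either direction. At an adjusted p of 0.05 there were 6, against 8.67%. The median log2 fold change of the 38 was -0.13. Both *Tet2/3* DKO libraries lay below every WT library for 17 of the 38, against 19.5% of all tested genes, and above for 3, against 19.6%. *Bcl3*, which encodes an atypical IκB that binds the processed *Nfkb1* and *Nfkb2* products in the nucleus, had 140, 142 and 138 CPM in WT and 87.4 and 80.7 CPM in *Tet2/3* DKO cells. It fell by 0.73 on the log2 scale (SE 0.09, adjusted p = 0.00144, edgeR), with 84.3% of its stranded reads kept by the count without regard to strand. Per 100 *Nfkb1* reads it had 334, 335 and 311 reads in WT, against 152 and 123 in *Tet2/3* DKO cells. Without WT replicate 1, 2 or 3 its adjusted p was 0.0155, 0.0142 or 0.0129. *Nfkbib*, which encodes the classical IκBβ, had 90.7, 88.9 and 97.0 against 95.7 and 95.1 CPM (log2 fold change 0.05, adjusted p = 0.811).

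*Otulin*, which encodes the enzyme that removes linear ubiquitin chains, was the gene that rose, from 99.3, 97.6 and 108 CPM in WT to 163 and 144 CPM (log2 fold change 0.59, SE 0.10, adjusted p = 0.00575). Its adjusted p was 0.0462, 0.0392 or 0.0233 without WT replicate 1, 2 or 3 and 0.0128 with the replicate number as a block. *Rbck1*, a part of the enzyme that makes those chains and the gene with the highest RPKM among the ubiquitin regulators, had 367, 354 and 357 against 326 and 326 CPM (adjusted p = 0.325). *Tnip1*, the gene for a partner of the *Tnfaip3* protein, had 110, 117 and 120 against 87.7 and 79.1 CPM (log2 fold change -0.47, adjusted p = 0.0161). Its adjusted p was 0.00408 or 0.0248 without *Tet2/3* DKO replicate 1 or 2 and 0.0651, 0.0641 or 0.071 without WT replicate 1, 2 or 3.

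Of the 9 IKK and TAK1 kinase genes and the 6 genes of the antigen receptor arm none passed 0.01 or 0.05, with 2 and 1 at an unadjusted p under 0.05 (23% of all tested genes), and DESeq2 called 5 of the 39 pathway genes in all, against 6.91% of all genes. The genes with the highest RPKM in these lists were *Ikbke*, a noncanonical IKK kinase (223, 231 and 192 against 158 and 174 CPM, adjusted p = 0.0597), and *Prkcq*, the kinase that links the T cell receptor to NF-κB (441, 472 and 380 against 359 and 391 CPM, adjusted p = 0.307). Of the 5 genes of the noncanonical arm none passed 0.01 and 1 passed 0.05, against 8.67% of all tested genes. *Traf2*, the highest of them by RPKM in WT cells, had 149, 162 and 170 against 139 and 147 CPM (log2 fold change -0.17, adjusted p = 0.336, edgeR). The 1 past 0.05 was *Map3k14*, the gene for the kinase NIK that triggers the cutting of the *Nfkb2* product. *Map3k14* had 22.3, 27.3 and 23.9 CPM in WT and 16.3 and 15.0 CPM in *Tet2/3* DKO cells. Its log2 fold change was -0.65 (SE 0.15, adjusted p = 0.028), and its adjusted p was 0.0744, 0.107 or 0.0903 without WT replicate 1, 2 or 3.

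Of the 7 tested TNF family receptors 5 lay below WT in both *Tet2/3* DKO libraries, against 19.5% of all tested genes. None passed 0.01, and 5 had an unadjusted p under 0.05, against 23% of all genes. *Tnfrsf4*, which encodes OX40 and had the highest RPKM among the receptors in WT cells, had 472, 403 and 526 CPM in WT and 107 and 305 CPM in *Tet2/3* DKO cells (log2 fold change -1.18, SE 0.34, adjusted p = 0.0689). With either *Tet2/3* DKO library left out it was past 0.01, at -0.62 without replicate 1 (adjusted p = 0.00318) and -2.14 without replicate 2 (adjusted p = 5.49e-08), whereas the adjusted p was 0.173, 0.168 or 0.222 without WT replicate 1, 2 or 3. *Tnfrsf18*, which encodes GITR, had 219, 185 and 244 against 161 and 147 CPM (log2 fold change -0.49, adjusted p = 0.0394, and 0.147 or 0.127 without WT replicate 1 or 3). Both are also known as genes of regulatory T cells, for which 1 of 5 markers, *Foxp3*, passed 0.01, against 3.92% of all tested genes. The other 4 markers than *Tnfrsf18* summed to 146, 162 and 171 CPM in WT and 103 and 154 CPM in *Tet2/3* DKO replicates 1 and 2, so that replicate 2 lay within the WT range. Of these, *Ctla4* had a log2 fold change of 0.09, *Ikzf2* of 0.37 and *Il2ra* of -0.52, and none of the 3 passed the test. *Il2ra* had 34.2, 33.7 and 37.4 against 11.4 and 38.3 CPM, so that only *Tet2/3* DKO replicate 1 lay below WT. Of the stranded reads of *Tnfrsf18* 45.6% were kept, and with both strand columns its log2 fold change was -0.50 (adjusted p = 0.0305, edgeR). The part of regulatory T cells in the result was not tested. *Cd40*, a receptor best known from B cells and antigen-presenting cells, went the other way at a low level, with 0.85, 0.34 and 0.18 against 1.67 and 1.96 CPM (log2 fold change 1.98, SE 0.52, adjusted p = 0.0471). It was 2.80 without WT replicate 1 (adjusted p = 0.0287), and the adjusted p was 0.178 or 0.149 without WT replicate 2 or 3. *Cd27*, a receptor of maturing thymocytes, had 526, 518 and 587 against 563 and 546 CPM.

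**Figure D5:**
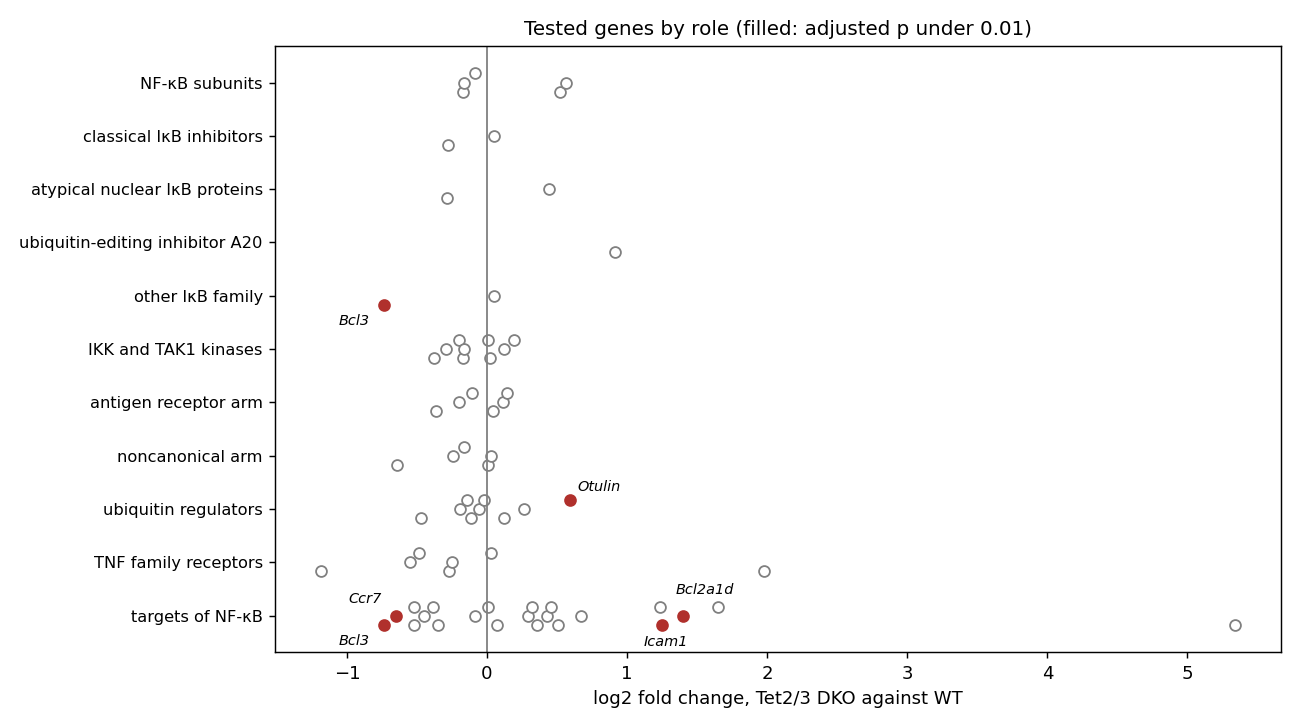
Log2 fold change, *Tet2/3* DKO against WT, of each tested gene by role, filled where the adjusted p was under 0.01. *Ccl3* is left out because no WT library had more than 3 reads on it. The 10 subunit and inhibitor genes lie between -0.29 and 0.91 with none filled, and the filled genes are *Bcl3*, *Otulin*, *Ccr7*, *Icam1* and *Bcl2a1d*.

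Of 23 genes commonly cited as NF-κB targets in lymphocytes, all tested, 3 were higher and 2 lower, against 2.42% and 1.5% of all tested genes. *Icam1*, which encodes an adhesion molecule, had 26.3, 29.3 and 30.8 CPM in WT and 74.7 and 62.2 CPM in *Tet2/3* DKO cells. It rose by a log2 fold change of 1.25 (SE 0.12, adjusted p = 0.000444) and was past 0.01 in all 14 alternatives, although an antisense gene overlaps it and 72.9% of its stranded reads were kept. *Bcl2a1d*, a survival gene with near-identical copies among which reads cannot be divided with certainty, had 15.8, 14.5 and 20.95 against 32.5 and 58.2 CPM (log2 fold change 1.40, SE 0.24, adjusted p = 0.0078, and 0.0453, 0.064 or 0.0287 without WT replicate 1, 2 or 3). *Ccl3*, a chemokine gene, had 1, 1 and 2 reads in WT and 12 and 717 reads in *Tet2/3* DKO libraries, so that *Tet2/3* DKO replicate 2 carried nearly all of its signal (adjusted p = 0.00737, and 0.0188 without that library or 0.0655, 0.094 or 0.082 without WT replicate 1, 2 or 3). *Ccl4* and *Ccl5*, chemokine genes too, were higher in both *Tet2/3* DKO libraries without passing 0.01. *Ccl4* had 0.70, 0.42 and 1.02 against 4.96 and 55.6 CPM (adjusted p = 0.012), with an adjusted p of 2.12e-12 or 0.000134 without *Tet2/3* DKO replicate 1 or 2 and of 0.0527, 0.0869 or 0.0746 without WT replicate 1, 2 or 3. *Ccl5* had 2.55, 1.90 and 4.66 against 7.87 and 11.7 CPM (adjusted p = 0.0174), with an adjusted p of 0.000318 or 0.0134 without *Tet2/3* DKO replicate 1 or 2 and of 0.0858, 0.0892 or 0.0203 without WT replicate 1, 2 or 3.

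The targets that fell were *Bcl3* and *Ccr7*. *Ccr7*, which encodes the chemokine receptor that guides CD4 SP cells to the medulla, had 2219, 2160 and 2220 CPM in WT and 1470 and 1336 CPM in *Tet2/3* DKO cells (log2 fold change -0.65, SE 0.08, adjusted p = 0.00153). Its adjusted p was 0.0165, 0.0168 or 0.018 without WT replicate 1, 2 or 3. *Ltb*, the lymphotoxin β gene and the target with the highest RPKM after *Ccr7* in WT cells, had 1220, 1096 and 1391 against 1504 and 1089 CPM (adjusted p = 0.837). *Junb* had 585, 704 and 626 against 1257 and 492 CPM (adjusted p = 0.418), high in the same library as *Tnfaip3*. NK and innate-like cells also make chemokines of this list and *Icam1*. Their markers were higher in both *Tet2/3* DKO libraries, as *Nkg7* at 27.0, 26.7 and 37.5 against 295 and 522 CPM and *Zbtb16* at 1.24, 0.55 and 0.87 against 11.97 and 14.2 CPM. All 7 tested myeloid and dendritic cell markers had a positive log2 fold change, with a median of 1.51. None passed 0.01, 2 passed 0.05 (8.67% of all tested genes) and 5 had an unadjusted p under 0.05 (23%). Both *Tet2/3* DKO libraries lay above every WT library for 4 of them (19.6% of all). Their summed level was 80.6 to 102 CPM in WT and 106 and 194 CPM in *Tet2/3* DKO libraries. B cell markers summed to 5.61 to 6.96 against 9.11 and 8.62 CPM. The tested ones had opposite signs, with *Cd79b* at 3.597, 4.17 and 3.68 against 7.34 and 5.32 CPM and *Cd79a* at 1.74, 2.02 and 3.17 against 1.53 and 1.40 CPM. The cells had been sorted as live TCRβ+ CD4+ CD8- cells. The part of NK and innate-like cells, myeloid cells and B cells in the changes was not tested.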

How the data were processed

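RNA of sorted CD4 SP cells was measured in 3 WT and 2 *Tet2/3* DKO libraries, grouped by the genotype in the sample labels. Per the processing notes and methods, the authors used bcl2fastq 2.20.0, fastp 0.21.0 and STAR 2.7.5a with mm10 and the GRCm38.100 annotation, and deposited raw read counts per gene for each library, with no normalization or pooling. Reads on overlapping genes or several places are not in these counts. Precision is set by 17607089 to 27267031 reads on genes per library and by the number of mice.

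The unstranded counts entered edgeR 4.0.16 (TMM, quasi-likelihood, filterByExpr, Benjamini-Hochberg over 13525 genes, threshold 0.01) in R 4.3.3. The standard error is the log2 fold change over the square root of F, and intervals use the fit's degrees of freedom. Symbols, coordinates and lengths came from GENCODE M21, and principal transcripts were preferred after all-exon values were seen. DESeq2 1.42.0, other scalings, filters, strand columns, thresholds, the replicate block and libraries left out in turn were alternatives. The test was also run on simulated data, from which no result is given or used here. Members and lists were chosen with earlier results of these data known. All members are named, and of the other lists the genes past the threshold, the highest by RPKM and a few others (*Tnip1*, *Map3k14*, *Tnfrsf18*, *Nfkbib*, *Cd27*, *Cd40*, *Ccl4*, *Ccl5*, *Junb*, *Dusp1*) chosen after their values were seen. The clonotype tables were not used here.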

Additional observations from a re-analysis of the deposited data

How the results depend on the processing

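The number of genes past the threshold was 530 and moved to 1027 with DESeq2, to 1173 at an adjusted p of 0.05, and to between 110 and 1311 with 1 library left out (110 to 152 without a WT library, 1311 and 1148 without *Tet2/3* DKO replicate 1 or 2). Of the 10 NF-κB genes, 0 passed, against 1 with DESeq2, 2 at 0.05 and 0 to 2 with 1 library left out (1 without *Tet2/3* DKO replicate 1, 2 without replicate 2). Of the other pathway genes 2 passed, against 5 with DESeq2, 6 at 0.05 and 0 to 4 with 1 library left out (0 without any 1 of the WT libraries). Of the targets 5 passed, against 3 with robust moderation and 1 to 10 with 1 library left out (1 without any 1 of the WT libraries). Leaving out a library leaves fewer libraries, and the lone *Tet2/3* DKO library is then assumed to vary like the WT ones. The direction turned for *Nfkb2*, to 0.055 and 0.084 in the first and second strand columns and 0.064 in their sum (an alternative chosen after seeing the data) and, with 1 library left out, between -0.33 (without *Tet2/3* DKO replicate 2) and 0.11 (without replicate 1), for *Nfkbie*, to -0.0044 without WT replicate 2, and between -0.23 (without *Tet2/3* DKO replicate 2) and 0.29 (without replicate 1), and for *Tnfaip3*, to -0.17 without *Tet2/3* DKO replicate 1, against 1.49 without replicate 2. Apart from the sum of the strand columns for *Nfkb2*, the cause was not tested. Among single genes and alternatives, 191 values kept direction and side of the threshold, 4 passed it, 20 lost it and 7 turned.

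Replicate numbers are shared between the genotypes but mark different animals, and same-numbered libraries did not deviate together (correlations of 0.0151 and 0.0045). With the replicate block 358 genes, 0 NF-κB genes, 1 pathway gene (*Bcl3*, without *Otulin*) and 6 targets passed. Of the 10 genes *Rel* had the fewest reads, 333 to 483 per library.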
